A study of Homo sapiens with 20 samples.

Results

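In SUM44 cells, an estrogen receptor-positive line from an invasive lobular breast carcinoma, 106 of 11963 measured genes were lowered by estradiol (E2) at both times examined, 3 h and 24 h. The genes were selected on these data, by the decrease itself. Each gene was read from its brightest probe set, by the mean of all 20 arrays, and a gene was kept when its mean log2 level with E2 lay at least 1.5-fold below that with vehicle (a difference of -0.585 or lower) at 3 h and again at 24 h. A mean log2 level of at least 6.5 with vehicle at 24 h was also required, a floor that 69.3% of all genes reached and that removed FZD10, LGI1 and SYTL2 from 109 otherwise fitting genes. The E2 effects at both times, and their difference, are therefore described here and not tested.

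Cells were kept without hormone for 3 days and then given 1 nM E2, or 0.01% ethanol as its vehicle. Arrays were made from 4 E2 and 4 vehicle cultures after 3 h, from 4 E2 and 4 vehicle cultures after 24 h, and from 4 cultures taken at baseline, 0 h, before any addition. All 5 groups shared the hormone deprivation, so that the vehicle and baseline groups stand for estrogen-starved cells of a single line and not for cells in full medium. The study calls its replicates biological quadruplicates, and every comparison rests on those 4 arrays a group. The stripped serum is given as 2% in the series text and as 10% in the sample text. For the 4 arrays of E2 at 24 h the treatment label says baseline, against the title and description of the same arrays, and the title was followed. The 8 luminal epithelial markers (KRT8, KRT18, KRT19, EPCAM, ESR1, FOXA1, XBP1 and SPDEF) had baseline means of 11.5 to 13.9, well above the level of most genes. A level below 6.11, under which the lowest 25% of genes lie, is called dim here. By that measure 3 of 4 basal or myoepithelial, 3 of 6 stromal and 2 of 5 immune or endothelial markers were dim in all 5 groups, and the stromal marker COL1A1 was highest of these (8.505 at baseline). Correlations between arrays were 0.998 to 0.999 within groups and 0.990 to 0.998 between groups, and no array stood apart from its group.

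Estradiol acts through the estrogen receptor, a ligand-activated transcription factor that binds DNA directly or through partner factors such as AP-1. It is best known in breast cancer cells for the genes it induces, but many genes are repressed as well. In ductal lines the repressed genes include brakes on growth and survival such as CCNG2 and BIK, and also the growth factor receptor ERBB2. Proposed routes to repression include the loss of coactivators to induced sites, the recruitment of corepressors, and the action of proteins made early in the response. Array levels do not distinguish these routes, and in bulk lysates a lower level in every cell cannot be told apart from a loss in a share of the cells.

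The 106 genes made up 34.3% of the genes at least 1.5-fold lower with E2 at 3 h (2.58% of all genes) and 26.6% of those at least 1.5-fold lower at 24 h (3.33% of all genes). A further 178 genes with the same floor met the rule of change at 3 h alone and 263 at 24 h alone. Averaged over the 106 genes, the log2 level was 8.10 ± 0.050 with E2 against 9.29 ± 0.026 with vehicle at 3 h, and 8.29 ± 0.049 with E2 against 9.36 ± 0.015 with vehicle at 24 h (SD, n = 4 arrays each). The baseline arrays averaged 9.22 ± 0.0083, so the set sat near its vehicle level before any addition. Over all genes the array means lay between 7.95 and 7.97 throughout. The median difference between E2 and vehicle over the 106 genes was -1.02 at 3 h (range -3.38 to -0.59) and -0.93 at 24 h (range -2.82 to -0.59), against medians of 0.00020 and 0.017 over all genes. A decrease of at least 2-fold was seen for 54 of the genes at 3 h, for 47 at 24 h and for 28 at both times. The median vehicle level of the members at 24 h was 9.46, against 9.07 over the 8286 genes at or above the floor.

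**Figure D1:**
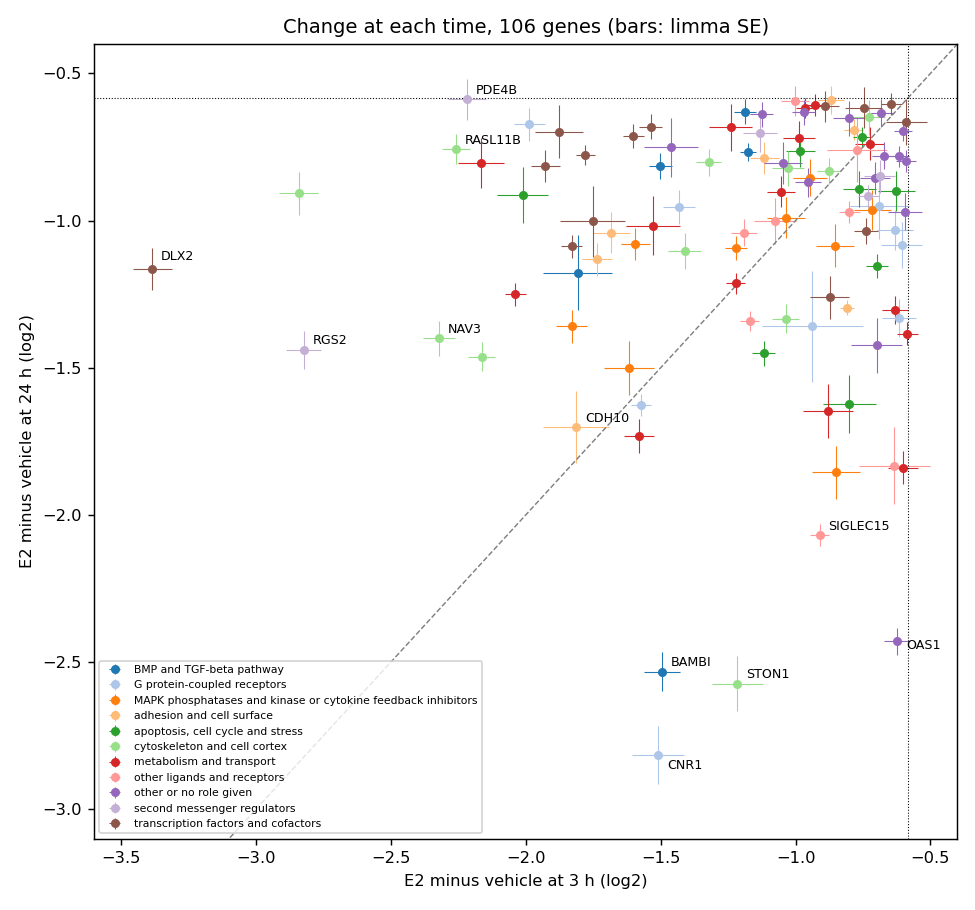
Log2 difference between E2 and vehicle at 3 h (x axis) and at 24 h (y axis) for the 106 genes lowered at both times, coloured by role, with bars for the SE of the limma fit and dotted lines at the rule. All points lie below -0.585 on both axes because that was the rule, and along x they reach -3.38 (DLX2) and along y -2.82 (CNR1).

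For each of the 106 genes, the 4 E2 arrays lay wholly below the 4 vehicle arrays at 3 h and at 24 h. Over all genes 17.2% showed that separation at 3 h and 22.5% at 24 h. The narrowest gap between the highest E2 array and the lowest vehicle array was 0.23 at 3 h and 0.38 at 24 h, beside a median SD within groups of 0.066 for the members and 0.064 for all genes. In the limma fit each of the 106 had an adjusted p under 0.05 at both times, a threshold that 17.6% of all genes passed as lower at 3 h and 24.2% at 24 h. No member passed it as higher, against 13.5% of all genes at 3 h and 21.5% at 24 h. Since the rule used these differences, nothing is read from those counts.

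The baseline arrays took part in the choice of each gene's probe set, by its mean level, but not in the differences the rule used. Measured against them, 95 of the 106 genes were at least 1.5-fold lower with E2 at 3 h (2.44% of all genes) and 95 at 24 h (2.88% of all genes), though the E2 arrays themselves had been used by the rule. The E2 arrays lay wholly below the baseline arrays for 104 genes at 3 h (19.5% of all genes) and for 105 at 24 h (22.1% of all genes). The exceptions were TTC9 and MPZL2 at 3 h and CMAHP at 24 h. Decreases from baseline short of 1.5-fold were seen at 3 h for NEDD9, IL6R, SOX9, DUSP4, MTCL1, HMOX1, ATP2B1, E2F5, TTC9, MPZL2 and KMO. At 24 h they were seen for CMAHP, ARID5B, CLDN4, PLEKHA5, NAIP, POU2F3, GATAD1, TTC9, F3, MPZL2 and PDE4B. For those genes part of the gap between E2 and vehicle lay in a vehicle level above baseline, or the gap was close to the threshold.

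**Figure D2:**
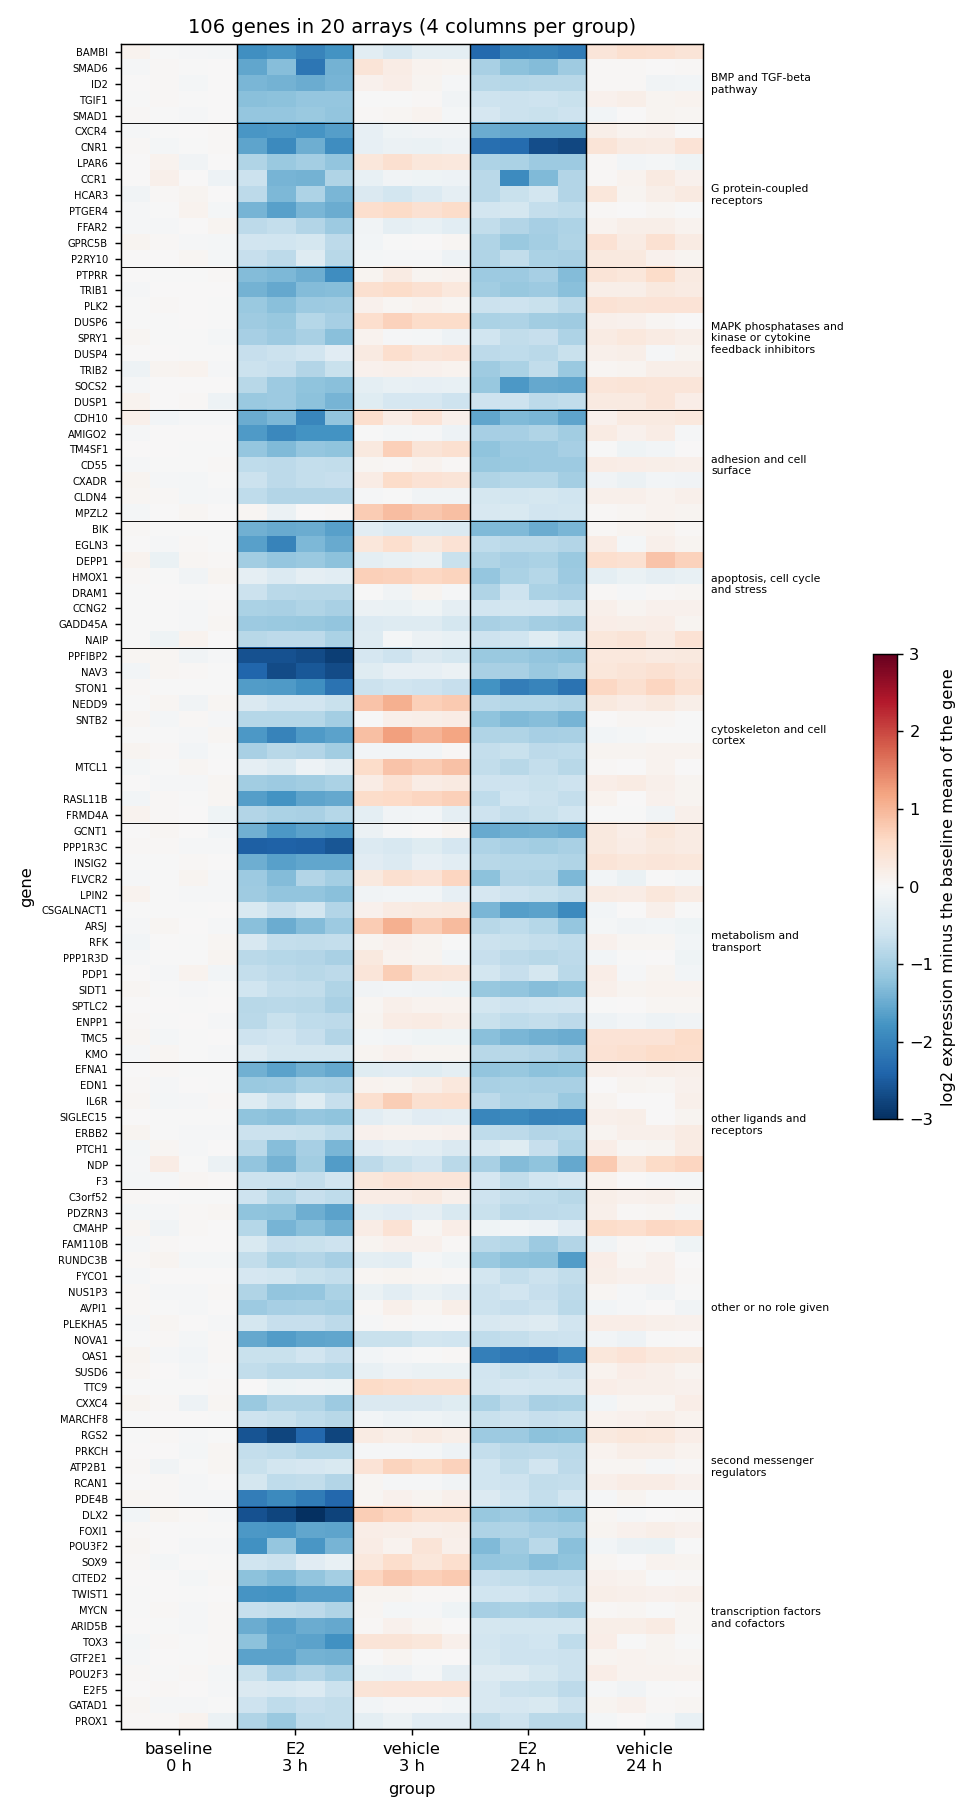
Log2 level of each of the 106 genes (rows, grouped by role, some drawn without a name) on each of the 20 arrays (columns), relative to that gene's mean over the baseline arrays, with groups ordered as baseline, E2 and vehicle at 3 h, and E2 and vehicle at 24 h. The 8 E2 columns are lower than the others in nearly all rows, and the vehicle columns differ from baseline in both directions.

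The genes nearest the threshold show what the rule kept and left out. Inside it, MPZL2 had a difference of -0.59 ± 0.048 at 24 h, PROX1 of -0.59 ± 0.077 at 3 h, PDE4B of -0.59 ± 0.070 at 24 h and KMO of -0.59 ± 0.039 at 3 h (SE of the limma fit, as for all differences below). Just outside it were SESN1, with -1.16 at 3 h and -0.58 at 24 h, and REL, with -1.18 and -0.57. SLC20A2 had -0.58 at 3 h and -0.60 at 24 h, and AUTS2 had -0.58 and -0.65. Each of these 4 missed the rule by less than the median SD within groups, 0.064 over all genes.

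Promoter sequences from RefSeq (GRCh38.p14, 250 bases before to 50 after each start) were matched by symbol for 81 of the 106 genes and for 9562 genes in all. Both strands were searched, and each motif is given as a match of letters and not as a bound site. A full estrogen response element (the palindrome of 2 arms without mismatch) was in 0 of the 81 windows and in 0.021% of all windows. A lone arm of it, AGGTCA, was in 7 windows (8.64%, against 10.3% of all). AP-1 letters, TGANTCA, were also in 7 windows (8.64%, against 5.43%), and the cyclic AMP response element TGACGTCA was in 2 (2.47%, against 3.06%). The E-box CACGTG was in 14 (17.3%, against 9.51%), the forkhead motif TGTTTAC in 4 (4.94%, against 2.50%), GATA letters AGATAA in 5 (6.17%, against 6.79%), the GC box GGGCGG in 56 (69.1%, against 63.1%) and TATAAA in 9 (11.1%, against 8.30%). A full estrogen response element can contain the lone arm, and no other motif searched contains another. Median GC content was 66.0% in the members' windows and 64.0% in all. The 7 genes with AP-1 letters were AMIGO2, ARSJ, CLDN4, ERBB2, F3, IL6R and SMAD1.

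Of these, the promoters of CLDN4 and F3 are printed because each holds AP-1 letters at 2 places. The promoter of DUSP1, a gene not among them, is printed because it holds the whole cyclic AMP element. AVPI1 also holds that element, from position -242, and its promoter is not printed. Each line gives the 250 bases before the start, with AP-1, lone arm and cyclic AMP element matches in capitals. CLDN4 is on the plus strand at chr7:73830746-73830995, with AP-1 letters from positions -242 and -161, counted from the start, and a lone arm, read on the other strand, from -219. F3 is on the minus strand at chr1:94541760-94542009, with AP-1 letters from -223 and -210. DUSP1 is on the minus strand at chr5:172771196-172771445, with the element from -125.
CLDN4: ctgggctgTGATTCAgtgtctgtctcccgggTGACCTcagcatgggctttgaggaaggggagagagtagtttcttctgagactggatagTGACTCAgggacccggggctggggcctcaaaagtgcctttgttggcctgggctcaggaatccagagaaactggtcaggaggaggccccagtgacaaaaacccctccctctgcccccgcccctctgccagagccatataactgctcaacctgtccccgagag
F3: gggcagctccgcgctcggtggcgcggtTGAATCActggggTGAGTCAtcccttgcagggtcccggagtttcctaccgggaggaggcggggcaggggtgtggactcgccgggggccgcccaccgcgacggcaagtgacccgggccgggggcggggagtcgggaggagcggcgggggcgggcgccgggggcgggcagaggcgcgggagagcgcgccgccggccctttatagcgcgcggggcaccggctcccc
DUSP1: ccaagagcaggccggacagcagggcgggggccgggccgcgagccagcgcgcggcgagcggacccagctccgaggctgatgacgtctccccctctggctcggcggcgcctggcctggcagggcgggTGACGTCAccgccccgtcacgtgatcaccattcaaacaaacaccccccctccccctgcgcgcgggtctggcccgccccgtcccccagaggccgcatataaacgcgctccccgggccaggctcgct
CLDN4, a tight junction protein, differed by -0.78 ± 0.035 at 3 h and -0.69 ± 0.035 at 24 h. F3, tissue factor, which starts blood clotting, differed by -1.002 ± 0.051 and -0.59 ± 0.051, and DUSP1, a nuclear MAP kinase phosphatase, by -0.72 ± 0.068 and -0.96 ± 0.068.

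Roles were given to the genes by hand after the members were known, so the sizes of the role groups are a description. The 12 genes whose weaker decrease was largest came from 7 of the 11 role groups, and their array values are given with those groups. They were CDH10, GCNT1, CXCR4, CNR1, PTPRR, BAMBI, PPFIBP2, RGS2, NAV3, TRIB1, PPP1R3C and STON1.

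**Figure D3:**
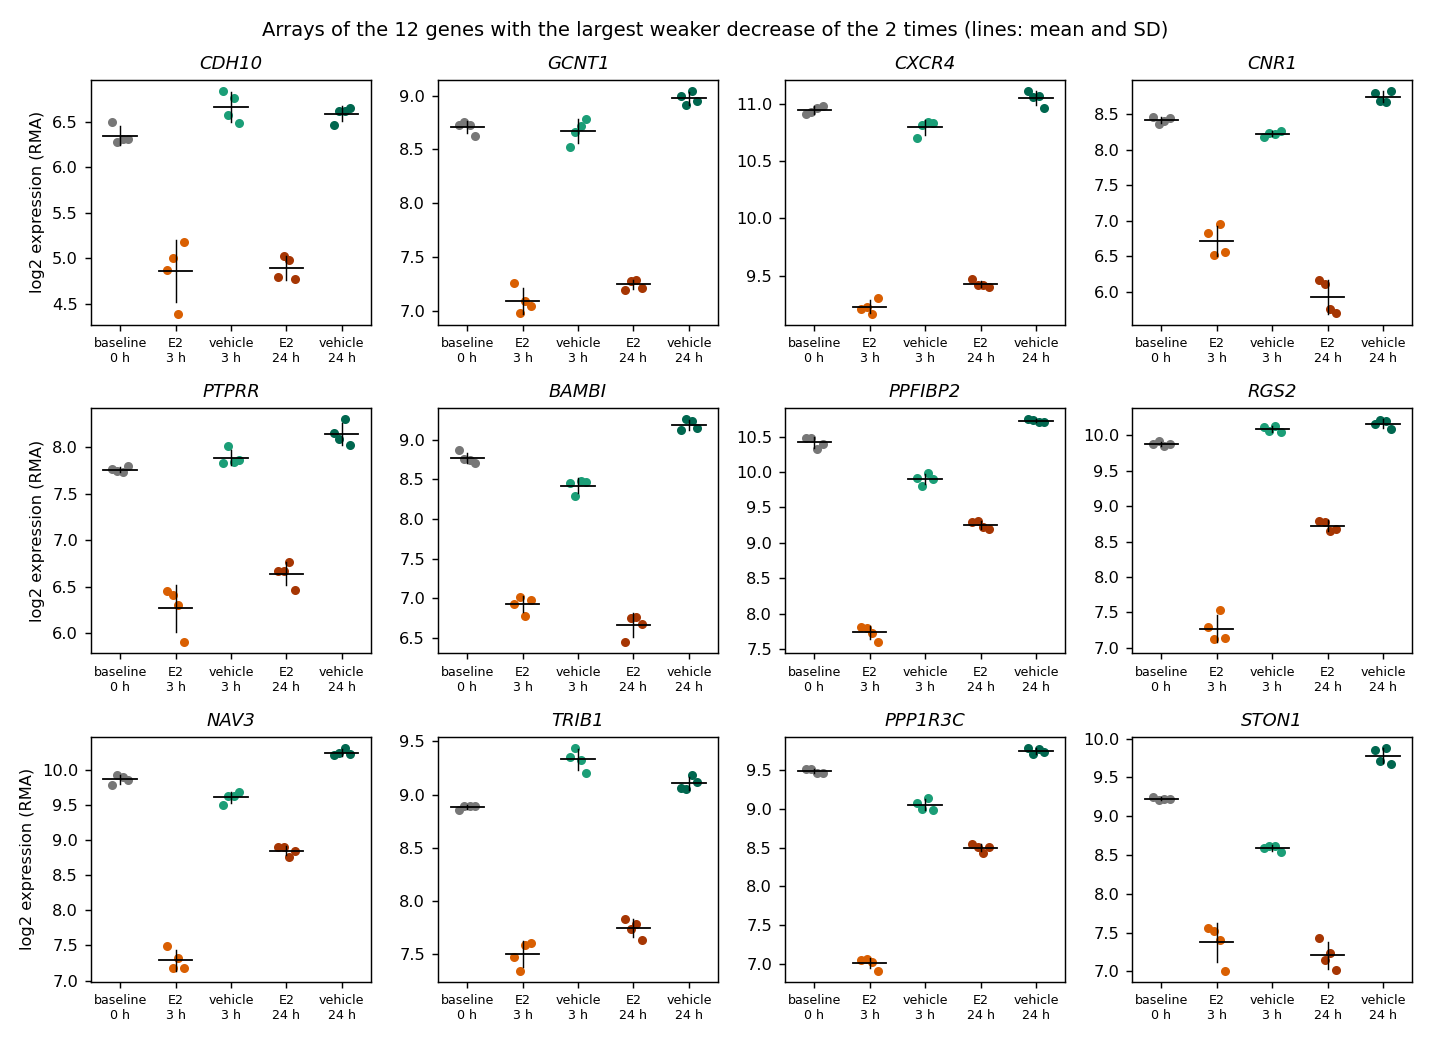
Log2 level on every array (points) with group means and SD (lines) for the 12 genes whose weaker decrease of the 2 times was largest, with groups ordered as baseline, E2 and vehicle at 3 h, and E2 and vehicle at 24 h. In every panel the E2 points lie below the vehicle and baseline points, and in the CNR1, BAMBI and STON1 panels the gap is wider at 24 h than at 3 h.

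G protein-coupled receptors made up 9 of the genes, with median differences of -0.94 at 3 h and -1.08 at 24 h. CXCR4, the receptor of the chemokine CXCL12, read 9.21, 9.23, 9.17 and 9.30 with E2 at 3 h, against 10.70, 10.82, 10.84 and 10.84 with vehicle. By 24 h the readings were 9.47, 9.42, 9.42 and 9.40 with E2 and 11.11, 11.06, 11.07 and 10.97 with vehicle. Levels of CXCR4 were thus 2.97-fold lower with E2 at 3 h and 3.09-fold lower at 24 h, with baseline arrays (10.91 to 10.98) close to vehicle. Both of its other probe sets lay between -1.54 and -1.49 at the 2 times. CNR1, a cannabinoid receptor, read 6.83, 6.52, 6.95 and 6.56 with E2 and 8.18, 8.23, 8.22 and 8.26 with vehicle at 3 h. The later arrays read 6.16, 6.11, 5.75 and 5.70 with E2, around the dim level, and 8.80, 8.68, 8.67 and 8.83 with vehicle. The decrease of CNR1 deepened to -2.82 ± 0.097 at 24 h, beside -1.51 ± 0.097 at 3 h. Its 2 other probe sets were dim and showed no such decrease (-0.039 and -0.21 at 3 h, 0.22 and -0.051 at 24 h). PTGER4, a prostaglandin receptor that raises cyclic AMP, had the opposite course, with -1.99 ± 0.057 at 3 h and -0.67 ± 0.057 at 24 h. Its other probe set, with a mean level of 6.19, showed no such decrease (-0.15 and 0.037). LPAR6, a lysophosphatidic acid receptor, was also lowered more at 3 h (-1.43) than at 24 h (-0.95). The other 5 were lowered further at 24 h: the chemokine receptor CCR1 (-1.36), the orphan receptor GPRC5B (-1.33), the lysophospholipid receptor P2RY10 (-1.08), the short-chain fatty acid receptor FFAR2 (-1.03) and the hydroxycarboxylic acid receptor HCAR3 (-0.95). CCR1 and HCAR3 were dim with E2 at both times, where signals near background compress a change.

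Regulators of second messengers made up 5 genes. RGS2, which speeds the shut-off of Gq proteins, read 7.29, 7.13, 7.53 and 7.13 with E2 at 3 h, against 10.12, 10.07, 10.13 and 10.05 with vehicle. Readings at 24 h were 8.80, 8.78, 8.65 and 8.68 with E2 and 10.16, 10.21, 10.20 and 10.08 with vehicle. That is a 7.07-fold decrease at 3 h and a 2.71-fold decrease at 24 h, and it was the E2 arrays that differed between the times, while vehicle averaged 10.09 and 10.16 (9.88 at baseline). PDE4B, which degrades cyclic AMP, had the same shape in a steeper form, with -2.22 ± 0.070 at 3 h and -0.59 ± 0.070 at 24 h. Its E2 mean at 3 h, 4.998, was dim. The other probe sets of PDE4B were dim on average, and differed by -0.74 and -0.20 at 3 h and by -0.21 and 0.13 at 24 h. PRKCH, protein kinase C eta, read 9.41, 9.37, 9.26 and 9.26 with E2 and 10.09, 10.10, 10.06 and 9.98 with vehicle at 3 h, then 9.40, 9.32, 9.35 and 9.33 with E2 and 10.24, 10.29, 10.31 and 10.23 with vehicle at 24 h. Its E2 level stayed at 9.33 and 9.35 while vehicle was somewhat higher at 24 h. ATP2B1, a calcium pump of the plasma membrane, differed by -1.13 at 3 h and -0.70 at 24 h. RCAN1, an inhibitor of the phosphatase calcineurin, differed by -0.69 and -0.85.

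MAP kinase phosphatases and other feedback inhibitors of kinase or cytokine signalling, with the kinase PLK2 grouped beside them, made up 9 genes. Their medians were -1.04 at 3 h and -1.08 at 24 h. PTPRR, a tyrosine phosphatase that acts on ERK, read 6.46, 6.41, 6.30 and 5.90 with E2 and 7.83, 8.01, 7.84 and 7.86 with vehicle at 3 h. The 24 h cultures gave 6.67, 6.66, 6.76 and 6.47 with E2 and 8.16, 8.09, 8.30 and 8.03 with vehicle. Its decrease was 3.07-fold at 3 h and 2.83-fold at 24 h, and a second probe set gave -1.56 and -1.58. TRIB1, a pseudokinase that guides proteins to degradation, read 7.47, 7.34, 7.58 and 7.61 with E2 and 9.36, 9.44, 9.33 and 9.20 with vehicle at 3 h. Its 24 h arrays read 7.83, 7.74, 7.79 and 7.63 with E2 and 9.07, 9.05, 9.18 and 9.12 with vehicle. All E2 arrays of TRIB1 lay below its baseline range of 8.85 to 8.89, and the vehicle arrays lay above it. DUSP6, a cytoplasmic ERK phosphatase, differed by -1.59 ± 0.054 at 3 h and -1.08 ± 0.054 at 24 h, and its relative DUSP4, found in the nucleus, by -0.95 ± 0.063 and -0.85 ± 0.063. Their other probe sets had the same decrease, from -1.69 to -1.08 at 3 h and from -1.07 to -0.87 at 24 h. For DUSP1, whose promoter is printed above, the other probe set differed by only -0.097 and -0.20. SPRY1, an inhibitor of receptor tyrosine kinase signalling, kept its decrease (-1.04 and -0.99), as did the kinase PLK2 (-1.22 and -1.09). SOCS2, a suppressor of cytokine signalling, was lowered further at 24 h (-1.86) than at 3 h (-0.85), and TRIB2 differed by -0.85 and -1.08.

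Genes of BMP and TGF-beta signalling numbered 5. BAMBI, a decoy receptor of the family, read 6.93, 7.02, 6.78 and 6.98 with E2 and 8.46, 8.29, 8.47 and 8.47 with vehicle at 3 h. After 24 h it read 6.44, 6.75, 6.77 and 6.67 with E2, against 9.12, 9.26, 9.23 and 9.15 with vehicle. The decrease was 2.82-fold at 3 h and 5.78-fold at 24 h, and both a lower E2 level and a higher vehicle level went with the wider gap. SMAD6, an inhibitor of BMP signals, read 6.09, 6.37, 5.49 and 6.23 with E2 and 8.03, 7.88, 7.76 and 7.73 with vehicle at 3 h. On the 24 h arrays it read 6.69, 6.42, 6.36 and 6.58 with E2 and 7.70, 7.69, 7.67 and 7.70 with vehicle. SMAD6 had the widest spread of the E2 arrays at 3 h among the genes given here array by array (SD 0.39), around a dim mean of 6.04. Its 3 other probe sets differed by between -0.28 and 0.029 only. SMAD1, which carries BMP signals to the nucleus, differed by -1.19 ± 0.041 at 3 h and -0.63 ± 0.041 at 24 h. ID2, a BMP target that blocks basic helix-loop-helix factors, differed by -1.500 ± 0.044 and -0.81 ± 0.044 from a high vehicle level (12.49 at 24 h). TGIF1, a corepressor of SMAD proteins, differed by -1.18 ± 0.031 and -0.77 ± 0.031. Activator and inhibitors of the pathway were lowered side by side, and 4 of the 5 were lowered further at 3 h.

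Other ligands and receptors made up 8 genes. EFNA1, a membrane-bound ephrin, read 8.87, 8.71, 8.88 and 8.79 with E2 and 9.96, 9.98, 9.96 and 10.03 with vehicle at 3 h, then 9.14, 9.18, 9.09 and 9.12 with E2 and 10.47, 10.46, 10.50 and 10.46 with vehicle at 24 h. Its decrease was 2.25-fold and 2.54-fold. EDN1, the peptide endothelin, read 8.31, 8.32, 8.47 and 8.45 with E2 and 9.51, 9.49, 9.58 and 9.72 with vehicle at 3 h. After 24 h the arrays read 8.45, 8.47, 8.43 and 8.45 with E2 and 9.44, 9.50, 9.46 and 9.55 with vehicle. The E2 means of EDN1 at 3 h and 24 h, 8.39 and 8.45, lay close together, and so did those of vehicle, 9.58 and 9.49. ERBB2, the receptor tyrosine kinase HER2, read 9.54, 9.55, 9.53 and 9.43 with E2 and 10.31, 10.31, 10.31 and 10.32 with vehicle at 3 h. By 24 h the readings were 9.43, 9.41, 9.32 and 9.35 with E2 and 10.27, 10.35, 10.34 and 10.44 with vehicle. ERBB2 was 1.74-fold lower at 3 h and 1.96-fold lower at 24 h, and its vehicle arrays lay near the top of or above the baseline range of 10.15 to 10.28. Its other probe set, with a mean level of 6.60, differed by -0.37 at 3 h and -0.43 at 24 h, short of 1.5-fold. SIGLEC15, a sialic acid-binding lectin, differed by -0.91 ± 0.037 at 3 h and -2.07 ± 0.037 at 24 h. NDP, the Frizzled ligand norrin, differed by -0.63 ± 0.13 and -1.83 ± 0.13, but its E2 means (4.71 and 4.79) and its vehicle mean at 3 h (5.34) were dim. IL6R, the interleukin receptor, and PTCH1, the Hedgehog receptor, kept their decreases (-1.08 and -1.001, -0.77 and -0.76). For PTCH1 the 2 other probe sets were dim and showed none (0.061 and 0.047 at 3 h, 0.053 and -0.082 at 24 h). F3, described above with its promoter, had the smaller decrease at 24 h.

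Transcription factors and cofactors made up 14 genes, and 11 of them were lowered further at 3 h than at 24 h. Their median difference was -1.57 at 3 h and -0.75 at 24 h. DLX2, a homeobox factor, read 5.78, 5.63, 5.36 and 5.60 with E2 at 3 h, against 9.13, 9.04, 8.87 and 8.86 with vehicle. At 24 h it read 7.26, 7.32, 7.22 and 7.15 with E2 and 8.45, 8.34, 8.40 and 8.41 with vehicle. This 10.4-fold decrease at 3 h was the deepest of the 106 genes at either time, and it stood at 2.24-fold at 24 h. The E2 arrays of DLX2 at 3 h were dim, and its other probe set, with a mean of 6.27, differed by only -0.10 and -0.032. FOXI1, a forkhead factor, read 8.61, 8.61, 8.79 and 8.75 with E2 and 10.54, 10.52, 10.50 and 10.51 with vehicle at 3 h. The later arrays read 9.42, 9.44, 9.35 and 9.32 with E2 and 10.42, 10.47, 10.52 and 10.47 with vehicle. Vehicle arrays of FOXI1 were level between the times and the E2 arrays at 24 h lay between them and the E2 arrays at 3 h. POU3F2, a POU-domain factor, differed by -1.75 ± 0.12 at 3 h and -1.002 ± 0.12 at 24 h. TWIST1, a basic helix-loop-helix factor known for its part in epithelial to mesenchymal transition, differed by -1.78 ± 0.035 and -0.78 ± 0.035. CITED2, a cofactor that binds the coactivator CBP, differed by -1.93 ± 0.054 and -0.81 ± 0.054. TOX3, an HMG-box factor read from a probe set that may cross-hybridise, differed by -1.88 ± 0.089 and -0.70 ± 0.089. ARID5B, a DNA-binding cofactor, and GTF2E1, a subunit of the general factor TFIIE, differed by -1.60 and -1.54 at 3 h and by -0.71 and -0.68 at 24 h. The exceptions in order of time were SOX9 (-0.87 at 3 h and -1.26 at 24 h), MYCN (-0.74 and -1.03) and PROX1 (-0.59 and -0.66). POU2F3, E2F5 and GATAD1 had decreases between -0.89 and -0.60 at both times.

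Proteins of the cytoskeleton and cell cortex, and their regulators, made up 11 genes, 9 of which were lowered further at 3 h. PPFIBP2, a liprin, read 7.82, 7.80, 7.74 and 7.602 with E2 and 9.91, 9.81, 9.99 and 9.90 with vehicle at 3 h. Readings at 24 h were 9.30, 9.31, 9.23 and 9.19 with E2 and 10.74, 10.74, 10.70 and 10.70 with vehicle. Both of its groups were higher at 24 h, and the decrease was 4.48-fold at 3 h and 2.75-fold at 24 h. NAV3, which binds microtubule ends, read 7.49, 7.18, 7.32 and 7.18 with E2 and 9.51, 9.63, 9.63 and 9.69 with vehicle at 3 h. The 24 h cultures gave 8.90, 8.91, 8.76 and 8.85 with E2 and 10.21, 10.25, 10.32 and 10.23 with vehicle. NAV3 followed the same course as PPFIBP2, 5-fold lower at 3 h and 2.64-fold lower at 24 h. STON1, an endocytic adaptor, read 7.56, 7.52, 7.40 and 7.01 with E2 and 8.58, 8.62, 8.61 and 8.54 with vehicle at 3 h, then 7.43, 7.15, 7.24 and 7.02 with E2 and 9.85, 9.72, 9.88 and 9.68 with vehicle at 24 h. Here the E2 level was similar at both times and the vehicle level differed, so that the decrease was 2.32-fold at 3 h and 5.95-fold at 24 h. RASL11B, a Ras-like protein, differed by -2.26 and -0.76. NEDD9, a docking protein of focal adhesions, differed by -1.41 and -1.10, and SNTB2, a syntrophin, by -1.04 and -1.33. The microtubule protein MTCL1 and the FERM-domain protein FRMD4A had decreases between -1.03 and -0.65.

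Adhesion and cell surface proteins made up 7 genes. CDH10, a cadherin, read 4.86, 5.0, 4.39 and 5.18 with E2 and 6.84, 6.57, 6.77 and 6.49 with vehicle at 3 h. At 24 h it read 4.80, 5.02, 4.98 and 4.77 with E2 and 6.47, 6.62, 6.62 and 6.66 with vehicle. The decrease of CDH10 was 3.51-fold and 3.25-fold, and it led the order by weaker decrease, though its E2 arrays were dim and its vehicle arrays were not far above that level. AMIGO2, an adhesion protein with leucine-rich repeats, read 8.78, 8.54, 8.68 and 8.68 with E2 and 10.46, 10.41, 10.43 and 10.33 with vehicle at 3 h. On the 24 h arrays it read 9.49, 9.47, 9.57 and 9.43 with E2 and 10.73, 10.61, 10.70 and 10.44 with vehicle. Its decrease was smaller at 24 h (2.19-fold) than at 3 h (3.33-fold), and baseline (10.44 to 10.49) lay within the vehicle range. TM4SF1, a membrane protein of the tetraspanin type, differed by -1.68 ± 0.069 at 3 h and -1.04 ± 0.069 at 24 h. CD55, which shields cells from complement, differed by -0.81 ± 0.026 and -1.295 ± 0.026 from a vehicle level of 12.06 at 24 h. CXADR, a junction protein and virus receptor, differed by -1.12 and -0.79. MPZL2, an adhesion protein of the immunoglobulin family, read 8.49, 8.26, 8.43 and 8.47 with E2 and 9.19, 9.35, 9.25 and 9.34 with vehicle at 3 h, then 7.94, 7.98, 7.85 and 7.87 with E2 and 8.47, 8.49, 8.53 and 8.51 with vehicle at 24 h. With E2 at 3 h MPZL2 overlapped its baseline range of 8.36 to 8.48, so that its decrease at that time was relative to a raised vehicle level.

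Genes of apoptosis, the cell cycle and stress made up 8 of the set. BIK, a BH3-only protein that promotes cell death, read 10.55, 10.49, 10.51 and 10.38 with E2 and 11.69, 11.58, 11.59 and 11.56 with vehicle at 3 h. After 24 h the arrays read 10.68, 10.67, 10.50 and 10.62 with E2 and 12.05, 12.08, 12.11 and 12.04 with vehicle. BIK was 2.17-fold lower at 3 h and 2.73-fold lower at 24 h, from levels among the highest of the set. EGLN3, a prolyl hydroxylase of hypoxia-inducible factor, read 5.82, 5.44, 6.09 and 5.94 with E2 and 7.78, 7.94, 7.73 and 7.88 with vehicle at 3 h. By 24 h the readings were 6.68, 6.64, 6.65 and 6.57 with E2 and 7.66, 7.39, 7.61 and 7.54 with vehicle. The E2 mean of EGLN3 at 3 h was dim, and the decrease was 4.03-fold at 3 h and 1.88-fold at 24 h. HMOX1, which degrades heme, read 8.72, 8.58, 8.71 and 8.66 with E2 and 9.69, 9.66, 9.61 and 9.64 with vehicle at 3 h, then 7.83, 8.03, 8.13 and 7.89 with E2 and 8.68, 8.79, 8.72 and 8.75 with vehicle at 24 h. Both of its groups were lower at 24 h than at 3 h. CCNG2, a cyclin linked to cell cycle arrest, differed by -0.75 ± 0.033 and -0.72 ± 0.033, and its 2 other probe sets by -0.73 to -0.95. GADD45A, a growth arrest protein, differed by -0.70 at 3 h and -1.15 at 24 h. DEPP1, a target of FOXO factors, differed by -0.80 and -1.62, but its other probe set by 0.017 and -0.088. DRAM1, an inducer of autophagy, differed by -0.76 and -0.89, and NAIP, an inhibitor of apoptosis, by -0.63 and -0.90.

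Enzymes and transporters made up 15 genes. GCNT1, which branches O-linked sugar chains, read 7.26, 6.98, 7.09 and 7.04 with E2 and 8.52, 8.67, 8.72 and 8.78 with vehicle at 3 h. The later arrays read 7.20, 7.27, 7.29 and 7.21 with E2 and 8.99, 8.91, 9.04 and 8.95 with vehicle. Its decrease held at 2.99-fold and 3.32-fold. PPP1R3C, which targets protein phosphatase to glycogen, read 7.05, 7.06, 7.03 and 6.91 with E2 and 9.08, 9.002, 9.14 and 8.99 with vehicle at 3 h. Its 24 h arrays read 8.55, 8.50, 8.44 and 8.51 with E2 and 9.79, 9.70, 9.78 and 9.74 with vehicle. PPP1R3C was 4.11-fold lower at 3 h and 2.38-fold lower at 24 h, and a second glycogen-targeting subunit, PPP1R3D, differed by -0.99 ± 0.059 and -0.72 ± 0.059. INSIG2, which holds back the sterol-sensing machinery in the endoplasmic reticulum, read 9.45, 9.29, 9.35 and 9.35 with E2 and 10.56, 10.51, 10.66 and 10.60 with vehicle at 3 h. Readings at 24 h were 10.08, 10.06, 10.05 and 9.998 with E2 and 11.29, 11.25, 11.26 and 11.25 with vehicle. The decrease of INSIG2 was 2.33-fold and 2.32-fold, both groups being higher at 24 h by like amounts (0.69 with E2 and 0.68 with vehicle). KMO, an enzyme of kynurenine breakdown, read 8.004, 7.88, 7.86 and 7.88 with E2 and 8.47, 8.53, 8.49 and 8.47 with vehicle at 3 h, then 7.55, 7.55, 7.52 and 7.41 with E2 and 8.83, 8.88, 8.94 and 8.91 with vehicle at 24 h. KMO had the smallest decrease of the set at 3 h and a 2.61-fold decrease at 24 h. Lowered further at 24 h were also TMC5, a channel-like membrane protein (-0.60 and -1.84), CSGALNACT1, which starts chondroitin sulfate chains (-0.88 and -1.65), and the membrane protein SIDT1 (-0.63 and -1.305). Lowered further at 3 h were ARSJ, of the arylsulfatase family (-2.17 and -0.81), the transporter FLVCR2 (-1.53 and -1.02) and PDP1, a phosphatase that activates pyruvate dehydrogenase (-1.24 and -0.68). LPIN2, a phosphatidate phosphatase, SPTLC2, a subunit of serine palmitoyltransferase, ENPP1, an ectoenzyme that makes pyrophosphate, and RFK, riboflavin kinase, had decreases between -1.05 and -0.61.

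The remaining 15 genes had other roles or none given here. OAS1, an antiviral enzyme induced by interferon, read 10.57, 10.58, 10.67 and 10.54 with E2 and 11.15, 11.20, 11.22 and 11.28 with vehicle at 3 h. The 24 h cultures gave 9.18, 9.10, 9.05 and 9.27 with E2 and 11.58, 11.64, 11.57 and 11.53 with vehicle. OAS1 was 1.54-fold lower at 3 h and 5.39-fold lower at 24 h, and its other probe set gave -0.59 and -2.54. NOVA1, an RNA-binding splicing factor, read 7.44, 7.31, 7.40 and 7.41 with E2 and 8.30, 8.32, 8.44 and 8.38 with vehicle at 3 h. After 24 h it read 8.23, 8.26, 8.33 and 8.36 with E2 and 8.90, 8.84, 8.96 and 9.003 with vehicle. The E2 arrays of NOVA1 at 24 h stood near the level of the vehicle arrays at 3 h, and its other probe set differed by -0.0076 at 3 h and -0.86 at 24 h. CXXC4, an inhibitor of WNT signalling, differed by -0.59 and -0.97. MARCHF8, a ubiquitin ligase, differed by -0.59 and -0.80, and PDZRN3, also a ubiquitin ligase, by -1.05 and -0.80. FYCO1, which moves autophagosomes, differed by -0.67 and -0.78. The pseudogenes CMAHP (-1.46 and -0.75) and NUS1P3 (-0.80 and -0.65) may share signal with their coding relatives, which the probe sets do not settle. RUNDC3B had -0.70 at 3 h and -1.42 at 24 h, with dim E2 means at both times. TTC9, SUSD6, AVPI1, PLEKHA5, FAM110B and C3orf52 had decreases between -1.12 and -0.60.

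The genes were compared with lists of pathway partners that were likewise chosen with earlier results known. Counts below are of genes passing the limma threshold (adjusted p under 0.05) over the whole list, members included, and stand beside the shares of all genes given above. Members are lower at both times by the rule, so the lower counts and the medians of each list include genes whose direction was fixed in advance. Of 11 measured genes known as estrogen-repressed in ductal lines, 4 were members (CCNG2, BIK, EFNA1 and ERBB2). At 3 h 7 of the 11 were lower and 2 higher (median -0.47), and at 24 h 9 were lower and 1 higher (median -0.72). Of the 7 that were not members, 3 were lower and 2 higher at 3 h (median -0.029). At 24 h 5 of those 7 were lower and 1 higher (median -0.55). Among the others of that list, BCAS1 differed by -0.029 ± 0.031 at 3 h and -1.48 ± 0.031 at 24 h (adjusted p = 0.56 and 1.0e-17), and NDRG1 by -0.15 ± 0.033 and -1.13 ± 0.033 (adjusted p = 0.0015 and 1.0e-15). TOB1, an antiproliferative protein of the same list, rose by 0.83 ± 0.040 at 3 h and 0.49 ± 0.040 at 24 h (adjusted p = 1.6e-12 and 4.3e-09). Genes of the list thus differed in when, and in whether, they were lowered.

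The homeobox and lineage factors had 36 measured genes, of which 4 were members (DLX2, TWIST1, SOX9 and ID2), with 16 lower and 6 higher at 3 h and 20 lower and 5 higher at 24 h. Among the 32 others, 12 were lower and 6 higher at 3 h, and 16 were lower and 5 higher at 24 h. TGF-beta and BMP signalling had 34, of which 4 were members, with 15 lower and 5 higher at 3 h and 14 lower and 5 higher at 24 h. The 30 others had 11 lower and 5 higher at 3 h and 10 lower and 5 higher at 24 h. SMAD3, a TGF-beta effector outside the set, differed by -0.42 ± 0.060 at 3 h and -1.04 ± 0.060 at 24 h (adjusted p = 1.2e-05 and 2.5e-11). TGFBR3, a coreceptor of the pathway, rose by 0.63 ± 0.067 and 1.16 ± 0.067 (adjusted p = 2.2e-07 and 2.35e-11). Cyclic AMP and G protein regulators had 35 measured genes and 2 members (RGS2 and PDE4B), with 8 lower and 4 higher at 3 h and 9 lower and 7 higher at 24 h. RGS10, another regulator of G protein signalling, rose by 0.46 ± 0.032 at 3 h and fell by 0.84 ± 0.032 at 24 h (adjusted p = 5.3e-10 and 5.5e-14). At 3 h RGS10 and RGS2 thus differed in direction.

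Adhesion and tight junction genes had 34 measured and 1 member (CLDN4), with 13 lower and 4 higher at 3 h and 15 lower and 6 higher at 24 h. OCLN, another tight junction protein, differed by -0.92 ± 0.039 at 3 h and -0.56 ± 0.039 at 24 h (adjusted p = 2.7e-13 and 4.6e-10) and missed the rule at 24 h alone. Glycogen-targeting subunits and enzymes had 14 measured and 2 members (PPP1R3C and PPP1R3D), with 6 lower and 0 higher at 3 h and 7 lower and 3 higher at 24 h. The 12 others had 4 lower and 0 higher at 3 h and 5 lower and 3 higher at 24 h. The cell cycle brakes had 25 measured and 2 members (CCNG2 and GADD45A), with 8 lower and 5 higher at 3 h and 11 lower and 6 higher at 24 h. The BCL2 family had 14 measured and 1 member (BIK), with 3 lower and 3 higher at 3 h and 5 lower and 2 higher at 24 h. PMAIP1, a BH3-only protein like BIK, rose by 1.94 ± 0.068 at both times (adjusted p = 1.3e-14 at each). Receptor tyrosine kinases and ERBB ligands had 26 measured and 1 member (ERBB2), with 8 lower and 4 higher at 3 h and 7 lower and 7 higher at 24 h. Ephrins and Eph receptors had 18 measured and 1 member (EFNA1), with 5 lower and 3 higher at 3 h and 2 lower and 3 higher at 24 h. Interferon-stimulated genes had 24 measured and 1 member (OAS1), with 2 lower and 3 higher at 3 h and 7 lower and 3 higher at 24 h. OAS2, the relative of OAS1, differed by -0.29 ± 0.099 at 3 h and -0.84 ± 0.099 at 24 h (adjusted p = 0.032 and 7.4e-07). Medians were -0.14 at 3 h and -0.25 at 24 h for the lineage factors, and in the lists other than these and ductal repression they lay between -0.17 (TGF-beta and BMP signalling at 3 h) and 0.053 (receptor tyrosine kinases and ERBB ligands at 24 h).

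The 106 genes differed widely in course. Subtracting the difference at 3 h from that at 24 h gave a median of 0.092, with a range of -1.81 to 2.22, and 45 genes changed by less than 0.3 between the times. In 64 genes the decrease was larger at 3 h and in 42 at 24 h. The shift was at least 0.5 toward 3 h in 28 genes and at least 0.5 toward 24 h in 14. Among the 5 genes whose decrease shrank most by 24 h were DLX2 (2.22 ± 0.10), PDE4B (1.63 ± 0.099), RASL11B (1.502 ± 0.073) and RGS2 (1.38 ± 0.092). The E2 means of DLX2 and RASL11B at 3 h, 5.59 and 5.97, were dim, as was that of PDE4B. The 5 whose decrease deepened most were OAS1 (-1.81 ± 0.066), STON1 (-1.36 ± 0.13), CNR1 (-1.31 ± 0.14), TMC5 (-1.24 ± 0.079) and NDP (-1.20 ± 0.19). These values hold the movement of vehicle as well as that of E2. From 3 h to 24 h vehicle moved by -0.57 for DLX2, -0.53 for RASL11B and 0.073 for RGS2. For STON1 vehicle moved by 1.19 and the E2 level by -0.16. Of the genes named whose decrease shrank most, RGS2 and PDE4B act on second messengers, DLX2 is a transcription factor and RASL11B is a Ras-like protein. Of the 5 second messenger regulators, 3 were lowered further at 3 h and 2 at 24 h.

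The level with E2 itself was compared between the times, since the rule set no sign for it. The same arrays took part in choosing the genes, so the counts and adjusted p below are not independent of that choice. With E2 at 24 h against E2 at 3 h, 53 of the 106 genes were higher, beside 22.3% of all genes, and 28 were lower, beside 21.5% of all genes (limma, adjusted p under 0.05). With a 1.5-fold size also required, 20 were higher (3.2% of all genes) and 7 were lower (3.08% of all genes). The median over the 106 genes was 0.14, and over all genes 0.012. By smallest p, those that rose were PPP1R3C (1.49 ± 0.039, adjusted p = 3.1e-16), PPFIBP2 (1.52 ± 0.049, 5.4e-15), TWIST1 (1.10 ± 0.035, 6e-15), NAV3 (1.56 ± 0.060, 6.5e-14) and ARID5B (0.99 ± 0.040, 1.7e-13). Those that fell were OAS1 (-1.44 ± 0.047, 6.6e-15), SIGLEC15 (-0.75 ± 0.037, 2.3e-12), CD55 (-0.36 ± 0.026, 1.3e-09), TTC9 (-0.45 ± 0.035, 1.8e-09) and HMOX1 (-0.70 ± 0.054, 2.1e-09). Among the transcription factors 10 of 14 rose and 3 fell, and among the G protein-coupled receptors 3 of 9 rose and 3 fell.

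The vehicle level moved as well. With vehicle at 24 h against vehicle at 3 h, 51 of the 106 genes were higher (16.1% of all genes) and 29 were lower (12.8% of all genes), with a median of 0.11 beside -0.0023 over all genes. These arrays too had served the rule, so the counts and adjusted p are again not independent of the choice. The rises of smallest p were those of INSIG2 (0.68 ± 0.035, adjusted p = 6.8e-11), PPP1R3C (0.70 ± 0.039, 1.7e-10), PPFIBP2 (0.82 ± 0.049, 3.8e-10), EFNA1 (0.49 ± 0.034, 2.6e-09) and GADD45A (0.59 ± 0.041, 2.7e-09). Among the 5 falls of smallest p were those of HMOX1 (-0.92 ± 0.054, 3.2e-10), MPZL2 (-0.78 ± 0.048, 5.3e-10), CITED2 (-0.67 ± 0.054, 1.7e-08) and MTCL1 (-0.72 ± 0.059, 2.6e-08). For HMOX1, MPZL2 and MTCL1 the E2 level fell between the times too (-0.70 ± 0.054, -0.50 ± 0.048 and -0.51 ± 0.059), whereas for CITED2 it rose (0.44 ± 0.054). In all, 64 of the 106 genes passed the threshold between the times in both the E2 and the vehicle groups. A further 17 passed it in the E2 groups alone, 16 in the vehicle groups alone and 9 in neither. The joint shares over all genes were not counted, and the rule used both sets of arrays, so nothing is read from this split. The difference between the E2 and vehicle movements is the change in the E2 effect that the rule bounds, and it was not tested.

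**Figure D4:**
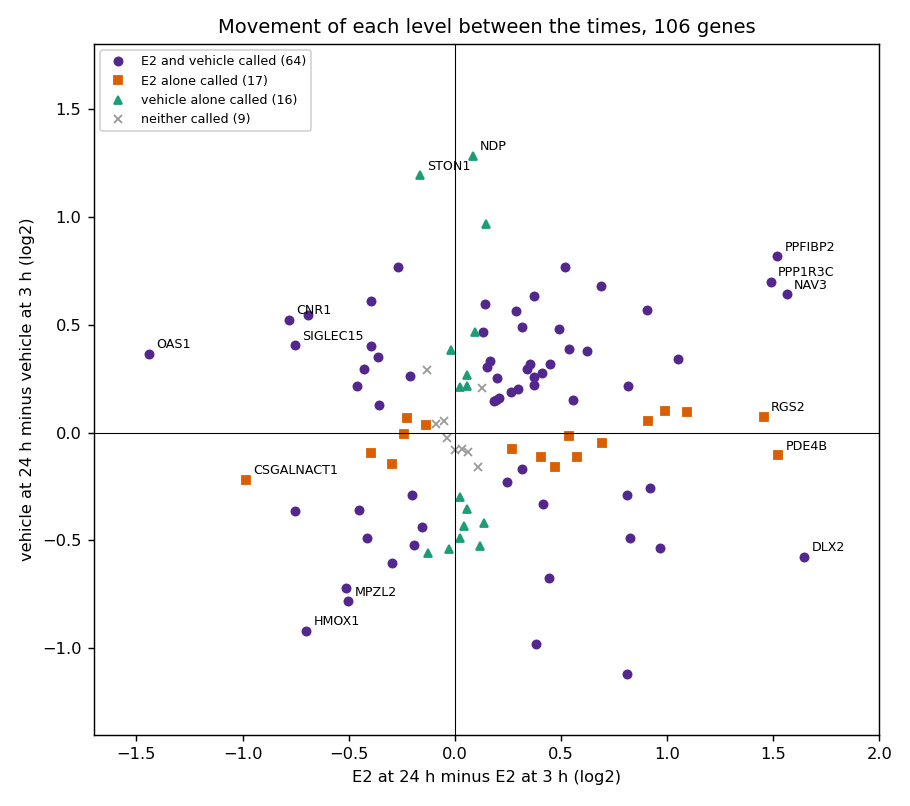
Difference between 24 h and 3 h in the E2 groups (x axis, log2) and in the vehicle groups (y axis, log2) for the 106 genes, with symbols for genes called by limma in both (64), in E2 alone (17), in vehicle alone (16) or in neither (9). DLX2, PDE4B and RGS2 lie far to the right with small or negative vehicle values. STON1 and NDP lie high with E2 values near 0, and HMOX1 and MPZL2 lie low in both. The share of all genes in each class was not counted.

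Against baseline, 34 of the 106 genes were higher with vehicle at 3 h (9.95% of all genes) and 27 were lower (10.1% of all genes). With vehicle at 24 h 42 were higher than baseline (7.55% of all genes) and 2 were lower (4.37% of all genes). A high vehicle level helped a gene to meet the rule, so these counts are not independent of the choice, and both comparisons share the baseline arrays. The medians over the 106 genes were 0.058 at 3 h and 0.11 at 24 h, beside -0.016 and -0.010 over all genes. At 3 h the 5 rises of smallest p included those of MPZL2 (0.85 ± 0.048, adjusted p = 4.3e-10), TTC9 (0.52 ± 0.035, 3.2e-09), NEDD9 (0.85 ± 0.061, 8.7e-09) and CITED2 (0.74 ± 0.054, 1e-08). The falls of smallest p at 3 h were those of NOVA1 (-0.62 ± 0.042, 4.1e-09), PPP1R3C (-0.44 ± 0.039, 1.3e-07), PPFIBP2 (-0.52 ± 0.049, 2.7e-07), GADD45A (-0.43 ± 0.041, 3e-07) and EFNA1 (-0.34 ± 0.034, 5.2e-07). Vehicle addition was thus followed within 3 h by shifts in both directions in genes of the set.

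At 24 h the rises of smallest p over baseline were those of KMO (0.50 ± 0.039, adjusted p = 6.6e-08), PLK2 (0.41 ± 0.041, 1.5e-06), INSIG2 (0.35 ± 0.035, 1.5e-06), TMC5 (0.45 ± 0.056, 1.8e-05) and OAS1 (0.34 ± 0.047, 6.2e-05). The genes lower than baseline were HMOX1 (-0.25 ± 0.054, adjusted p = 0.0043) and ENPP1 (-0.12 ± 0.037, adjusted p = 0.039). The ENPP1 call was lost with the mean over its probe sets (-0.032, adjusted p = 0.66), with a replicate block (adjusted p = 0.0505), and without any 1 of the 4 baseline arrays or of vehicle arrays A, C and D at 24 h (adjusted p of 0.054 to 0.11). The 9 genes given array by array whose vehicle arrays lay on opposite sides of baseline at the 2 times were CNR1, BAMBI, PPFIBP2, NAV3, PPP1R3C, STON1, INSIG2, EFNA1 and HMOX1. HMOX1 was higher at 3 h and lower at 24 h, and the other 8 were lower at 3 h and higher at 24 h. The share of all genes with vehicle on opposite sides of baseline was not counted. The 3' to 5' difference of the ACTB control probe sets, a measure of RNA quality, averaged 0.385 with E2 and 0.315 with vehicle at 3 h, 0.384 with E2 and 0.397 with vehicle at 24 h, and 0.466 at baseline. For the GAPDH control probe sets it averaged -0.138 with E2 and -0.116 with vehicle at 3 h, and -0.148 with E2 and -0.117 with vehicle at 24 h. The GAPDH value at baseline, -0.124, lay within the range of the other groups. The ACTB values at baseline, 0.456 to 0.479, lay above those of all other groups. At 3 h the E2 and vehicle arrays did not overlap for ACTB (0.343 to 0.419 against 0.291 to 0.339) or for GAPDH (-0.153 to -0.129 against -0.122 to -0.104). At 24 h they overlapped for both. A part of RNA quality in the shifts of the vehicle and baseline groups, or in the differences between E2 and vehicle, was not tested.

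How far a result rests on its probe set could be asked for the 50 members with further probe sets, 71 in all. Of these 71, 60 were below 0 at both times and 26 were at least 1.5-fold lower at both. Among the 49 that were not dim, 45 were below 0 and 22 at least 1.5-fold lower at both times, and among the 22 dim ones 4 were. All further probe sets met the 1.5-fold decrease in 18 genes, among them CXCR4, PTPRR, DUSP6, CCNG2 and ATP2B1, and none did in 30. Little or no decrease was seen, among others, in those of DLX2, PTGER4, SMAD6, SNTB2, DEPP1, MYCN and PTCH1. With E2, 14 members had a dim mean at 3 h, 8 at 24 h and 6 at both times, and HCAR3 and NDP were dim in a vehicle group. For those genes the size of the decrease is uncertain.

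The members lay on 23 chromosomes. Among measured genes, DUSP6 and ATP2B1 followed each other on chromosome 12, and RFK and GCNT1 on chromosome 9. Outside the set, genes whose 5 group means were most like the members' mean profile were sought among those not dim on average. The first 5 were HMGA1, INPPL1, NAGK, SMIM10L1 and VPS54, with Pearson correlations of 0.994 to 0.998 over the 5 groups. All had small differences, between -0.34 and -0.16 at 3 h and between -0.31 and -0.14 at 24 h, short of the 1.5-fold size of the rule.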

How the data were processed

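RNA of 20 cultures of SUM44 cells was measured on Affymetrix human expression arrays. The authors deposited a log2 value for each probe set, from RMA as run in affy, per the submitters' processing notes, whose versions and parameters are not given in the sources used here. RMA gives all arrays like distributions, so a change in total RNA per cell would not appear, and the number of arrays limits the precision. Groups and replicate letters came from the sample titles, and 0 columns belonged to no sample.

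Of 22277 probe sets, 62 controls were left out, and 19064 with 1 gene symbol in the platform annotation gave 11963 genes, each by its probe set of highest mean. Values of the 5 groups were fitted together with limma 3.58.1 in R 4.3.3 (lmFit, eBayes, a mean per group, two-sided), with Benjamini-Hochberg adjustment over the 11963 genes and a threshold of 0.05. The fit was tested on simulated data. Members, roles, lists and tests were chosen with earlier results of these data known. Array values are given for the 12 members whose weaker decrease was largest and for others in that order by role or list. They are also given for the member of smallest p in each direction of each tested comparison. For each tested comparison the 5 members of smallest p in each direction are named, as are at most 3 non-members of a list, by smallest p at 24 h. Results for some genes and 1 list that these rules name are not reported here. Replicate letters did not pair the arrays: correlations of deviations between same-lettered arrays ran from -0.245 to 0.370, and in 10 of 40 such comparisons the array correlated best with its own letter. Alternatives covered the rule, the probe set, centring, dim genes, the variance prior, a replicate block, the threshold and single arrays left out.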

Additional observations from a re-analysis of the deposited data

Results flagged for a closer look

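In 8 of the 145 groups of 4 arrays of the 29 genes given array by array, 1 array lay far from the others (its gap divided by the range of the group reached Dixon's critical value of 0.829), where chance gives about 1 in 20. With E2 at 3 h, KMO was highest on array A (ratio 0.896), which read 8.004 beside 7.86 to 7.88. With vehicle at 3 h, CXCR4 was lowest on array A (0.853, at 10.70 beside 10.82 to 10.84), PTPRR was highest on array B (0.829, at 8.01 beside 7.83 to 7.86) and BAMBI was lowest on array B (0.92, at 8.29 beside 8.46 to 8.47). With vehicle at 24 h, SMAD6 was lowest on array C (0.866, at 7.67 beside 7.69 to 7.70). At baseline, array A was highest for CDH10 (0.873, at 6.51 beside 6.28 to 6.31) and BIK (0.833, at 12.05 beside 11.98 to 11.99) and lowest for TRIB1 (1.0, at 8.85 beside 8.89). All of these gaps are small against the differences between E2 and vehicle of the same genes.

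In 9 of the genes the 4 vehicle arrays lay on one side of all baseline arrays at 24 h and on the other side at 3 h. The difference between vehicle at 24 h and vehicle at 3 h, which limma called in each, was 1.193 for STON1, 0.817 for PPFIBP2, 0.768 for BAMBI, 0.699 for PPP1R3C, 0.679 for INSIG2, 0.64 for NAV3, 0.522 for CNR1, 0.488 for EFNA1 and -0.919 for HMOX1. Since E2 was set against the vehicle of its own time, the E2 effects of these genes rest on references that differ between the times. The share of all genes with vehicle on opposite sides of baseline was not counted. Some of the genes given array by array were chosen by their vehicle movement, so nothing is read from the number. A cause for the movement was not tested.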

How the results depend on the processing

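The 106 genes became 28 with a decrease of 2-fold at both times, 109 without the floor and 84 with a floor of 8. They became 85 with the mean over probe sets (80 shared), 97 after centring each array and 102 with baseline in place of vehicle (86 shared), and 99 to 111 with any 1 array left out (97 to 106 shared). With a threshold of 0.01, the genes called with vehicle against baseline numbered 1573 at 3 h and 784 at 24 h, and the members higher at 24 h numbered 23. The members lower at 24 h numbered 1 with a replicate block, with the mean over probe sets and with the threshold of 0.01, and 1 to 2 with any 1 array left out, the change being ENPP1 each time. Over 37 results for named genes and 999 values under alternatives, 989 kept direction and side of the threshold, 10 (all for ENPP1) lost the call and 0 reversed. The replicate block changed no other call among them. Dim genes limit the size of a decrease, as 16 members had a dim mean in an E2 group.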
